A study of Homo sapiens with 6 samples.

Results

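Open chromatin was described at the 3 clustered gene families that build skin and hair: the epidermal differentiation complex (chromosome 1, 151.95 to 153.62 Mb), the type II keratin cluster (chromosome 12, 52.55 to 53.35 Mb) and the type I keratin cluster with the keratin-associated protein genes (chromosome 17, 38.8 to 39.8 Mb), all in hg19. Members were all regions inside these windows that carried an ATAC-seq peak, and no measured level was used to choose them. Merging peaks that overlapped between libraries gave 248031 regions, of which 512 lay in the windows: 221 in the epidermal complex, 161 in the type II cluster and 130 in the type I cluster. The cells were U2OS, an established human osteosarcoma line, either wild type (WT, 3 libraries) or with a knockout of CRAMP1 (CRAMP1-KO, 3 libraries), a chromatin protein known as a regulator of linker histone genes. All were grown without a stated treatment. ATAC-seq marks open chromatin with a transposase that inserts sequencing adapters where DNA is accessible. Whether replicates came from separate cultures, and whether the knockout is 1 clone, is not in the labels, so every p-value here covers the variation among the 6 libraries and that may be technical only.

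Keratins are intermediate filament proteins that assemble as pairs of a type I and a type II chain. KRT8 with KRT18 is the pair of simple epithelia, KRT5 with KRT14 that of basal epidermal cells, and KRT1 with KRT10 that of the layers above. As keratinocytes differentiate, precursors such as involucrin, loricrin and the SPRR and LCE proteins are crosslinked into the cornified envelope, and filaggrin binds keratin filaments. The same complex carries S100 genes, small calcium-binding proteins of which several are active outside epithelia. Osteosarcoma cells are mesenchymal in origin, and most of these families are known for their activity in epithelium and hair.

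The windows carried 431, 349 and 298 peaks in WT replicates 1 to 3, and 281, 286 and 336 in the CRAMP1-KO replicates. The whole lists held between 132686 and 198875 peaks, and WT replicate 1 had the longest. Read depth was not given, so values that grow with depth were expressed as a share of the library or scaled as stated. At the edges, the outermost regions inside the windows had median −log10 q values between 6.79 and 78.6, and the nearest regions outside had values between 2.84 and 93.3. CRAMP1 itself had no peak within 1 kb of its listed start, the distance used for the other genes. Within 3 kb it had a peak in all 6 libraries, which does not check the knockout. As a check of the cell type, 4 of 5 mesenchymal genes (VIM, COL1A1, COL1A2 and SPARC, not RUNX2 at its first start) had a peak at the start in all 6 libraries. Of 6 epithelial genes, EPCAM and KRT5 had one in all 6, TP63 in 1 library, and CDH1, OVOL1 and KRT14 in none. KRT8 and KRT18, which were not on that list, also had one in all 6.

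Promoter sequences of 5 genes are given first because the starts of LCE3A, PRR9 and CHTOP later show a genotype difference, while those of FLG (filaggrin) and KRT10 are examples of starts with no called peak. Each sequence is the 250 bases before the transcription start, 5′ to 3′ on the gene's strand, from RefSeq with GRCh38.p14 coordinates, which are not on the hg19 scale of the peaks. Capitals mark matches on either strand to the AP-1 letters TGANTCA, the TEAD letters GGAATG, the letters TATAAA of the TATA box or the letters GGGCGG of the GC box, and in FLG a TEAD and an AP-1 match overlap.
LCE3A (chr1:152623104-152623353, minus strand): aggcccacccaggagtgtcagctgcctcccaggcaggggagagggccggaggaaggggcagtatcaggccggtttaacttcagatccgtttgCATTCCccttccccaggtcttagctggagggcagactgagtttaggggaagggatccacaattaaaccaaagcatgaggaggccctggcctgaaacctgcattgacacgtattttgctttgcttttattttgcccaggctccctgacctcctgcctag
PRR9 (chr1:153217334-153217583, plus strand): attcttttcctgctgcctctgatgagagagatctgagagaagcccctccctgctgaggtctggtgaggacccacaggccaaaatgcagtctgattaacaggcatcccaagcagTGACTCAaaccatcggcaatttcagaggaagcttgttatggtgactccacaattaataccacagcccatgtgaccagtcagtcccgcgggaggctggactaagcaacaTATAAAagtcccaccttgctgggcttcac
CHTOP (chr1:153633816-153634065, plus strand): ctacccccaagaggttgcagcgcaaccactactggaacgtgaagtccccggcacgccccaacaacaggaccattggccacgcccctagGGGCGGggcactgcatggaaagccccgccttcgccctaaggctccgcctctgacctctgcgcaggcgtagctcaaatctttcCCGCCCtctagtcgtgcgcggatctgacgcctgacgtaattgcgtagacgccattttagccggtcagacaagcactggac
FLG (chr1:152325240-152325489, minus strand): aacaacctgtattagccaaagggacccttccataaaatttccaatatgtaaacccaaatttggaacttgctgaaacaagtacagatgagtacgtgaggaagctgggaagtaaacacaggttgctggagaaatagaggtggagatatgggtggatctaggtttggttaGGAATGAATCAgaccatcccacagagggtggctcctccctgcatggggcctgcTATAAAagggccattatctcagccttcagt
KRT10 (chr17:40822615-40822864, minus strand): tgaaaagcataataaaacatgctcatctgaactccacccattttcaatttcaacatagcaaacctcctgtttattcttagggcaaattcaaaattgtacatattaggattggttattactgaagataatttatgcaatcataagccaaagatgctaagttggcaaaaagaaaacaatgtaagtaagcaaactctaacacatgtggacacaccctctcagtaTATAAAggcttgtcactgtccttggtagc

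The CHTOP promoter, which faces S100A13 at a shared start, held 2 GC boxes and no TATA box, while PRR9, FLG and KRT10 each held a TATA box 29 or 30 bases before the start. Of the window genes, 95 matched a RefSeq promoter. These were 18 of the 30 genes with a start peak in all 6 libraries, 27 of 36 with one in some and 50 of 67 with none. S100A10, S100A13, KRT8, KRT18 and KRT80, all with a start peak in all 6 libraries, had no match and are not in the shares below. A TATA box stood in 33.3% of the promoters open in all 6, in 74.1% of those open in some and in 72.0% of those with no peak, beside 10.7% of all 35116 RefSeq promoters. A GC box stood in 4 of 18, 1 of 27 and 3 of 50 promoters of the 3 sets, beside 42.6% of all. The AP-1 letters stood in 33.3%, 11.1% and 22.0%, beside 6.57%, and the TEAD letters in 3 of 18, 4 of 27 and 10 of 50, beside 11.9%. Median GC content was 56.0%, 43.6% and 45.6%, beside 58.0% overall. These matches describe letters only, and no match says nothing about a factor. Among the matched promoters, those without an all-library peak were thus low in GC and rich in TATA boxes, and the open ones lay closer to the average promoter in GC content.

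Start peaks were unevenly spread over the gene families. Of 133 genes whose starts were usable, 30 had a peak within 1 kb in all 6 libraries, 36 in 1 to 5 and 67 in none. The S100 family was the most open, with 11 of 16 genes in all 6 libraries, among them S100A10 (the annexin A2 partner), S100A11, S100A2, S100A4, S100A13, S100A14 and S100A16. The simple epithelial keratins followed, with 4 of 7: KRT8, KRT18, KRT80 and KRT20. Stratified epithelial keratins had 4 of 21 (KRT5, KRT16, KRT17 and KRT78), late cornified envelope genes and their neighbours 4 of 20, and envelope precursors 3 of 15, LORICRIN among them. None of 17 hair keratins, 17 keratin-associated protein genes, 9 hair follicle sheath keratins or 7 fused S100 genes had a start peak in all 6 libraries, although 10 of the keratin-associated genes had one in at least 1. No library called a peak at the start of KRT7, KRT14, KRT1, KRT10, IVL, FLG or TCHH (trichohyalin, a hair follicle protein). Many genes in these families have near-identical copies (SPRR2, LCE, KRT6, KRT81 to KRT86, KRT33A to KRT34 and the keratin-associated genes), where read placement can split or lose signal, so the absence of a peak there is uncertain.

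**Figure D1:**
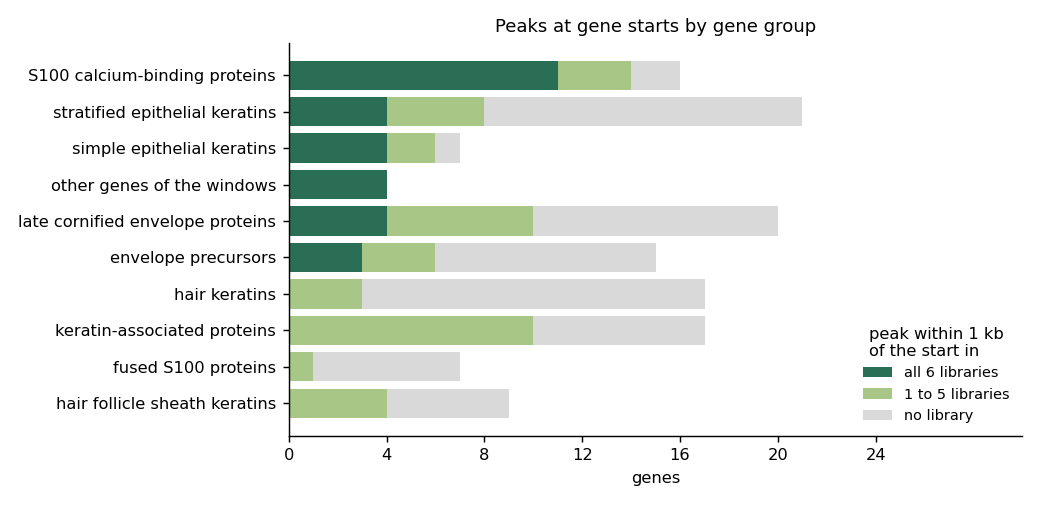
Genes of the 3 windows by family (vertical axis) and number of genes (horizontal axis), coloured by whether a peak lay within 1 kb of the start in all 6 libraries, in 1 to 5 or in none. S100 genes lead with 11 of 16 in all 6 libraries, and hair keratins, keratin-associated protein genes, fused S100 genes and sheath keratins have 0.

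Among the open starts, levels were compared as scaled summit pileup: the number of fragments stacked at the peak summit, solved from the deposited fold enrichment and −log10 p and divided by a library factor that equalises the median of the regions shared by all 6 libraries. KRT18 stood at 343, 416 and 422 in WT against 335, 369 and 341 in CRAMP1-KO, and its partner KRT8 at 231, 255 and 229 against 226, 207 and 195. KRT80, a type II keratin of broad expression, stood at 321, 429 and 421 against 417, 421 and 342. The genotypes overlapped at KRT18 and KRT80 but not at KRT8, where the lowest WT value lay just above the highest CRAMP1-KO value. For KRT18, KRT8 and KRT80, limma gave adjusted p-values of 0.34, 0.28 and 0.95. The nearest summit to the basal keratin gene KRT5 lay 625 bp or more from its start and reached only 97.5, 124 and 117 in WT against 89.6, 97.7 and 93.1 in CRAMP1-KO. S100A2 had the highest WT values of the named starts, 420, 510 and 510, against 467, 446 and 393. S100A4, known for its role in mesenchymal cell motility, stood at 331, 371 and 371 against 316, 317 and 288, with all 3 WT values above the CRAMP1-KO values but an adjusted p of 0.19 in limma (log2 difference −0.22, SE 0.11).

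Some starts had peaks in only some libraries. S100A6 (calcyclin) had a start peak in 3 WT libraries and in CRAMP1-KO replicate 3, with scaled pileups of 54.1, 58.6 and 69.7 in WT and 53.1 in that library. The S100A6 start used here did not match its RefSeq promoter within 150 bp, so these values may not describe that promoter. KRT9, the keratin of palm and sole skin, had one in WT replicate 2 (14.4) and in all 3 CRAMP1-KO libraries (27.8, 22.6 and 19.2). KRT15 had one in WT replicates 1 and 2, KRT23 in WT replicate 3 and KRT19 in CRAMP1-KO replicate 3. These peaks were near the calling limit in several libraries, so a missing peak means that none was called, not that the site was closed.

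The strongest sites of the windows lay mostly away from starts. The strongest of all, chr1:152020103-152021170, lay 10592 bp from the start of S100A11 and had scaled pileups of 566, 764 and 856 in WT against 744, 809 and 588 in CRAMP1-KO. In the type II cluster the strongest was chr12:52889948-52890961, 2907 bp from the start of KRT6A, a keratin induced in wounded skin, with 444, 550 and 545 against 407, 430 and 352. In the type I cluster it was chr17:39703675-39705752, 19034 bp from KRT19, with 441, 588 and 576 against 497, 528 and 425. The genotypes overlapped at the S100A11 and KRT19 sites. At the KRT6A site all CRAMP1-KO values were below the WT values, with a log2 difference of −0.37 (SE 0.13) and an adjusted p of 0.074 in limma.

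Several starts without a called peak had strong sites close by. A site at chr1:152878176-152879281, 1740 bp from the start of IVL, reached 346, 397 and 401 in WT against 357, 343 and 292 in CRAMP1-KO, although no library called a peak within 1 kb of the IVL start. The body of KRT7 held chr12:52637176-52638596 at 337, 401 and 376 against 309, 357 and 321, also without a start peak. A site 6682 bp from the KRT14 start, chr17:39735689-39736465, reached 235, 240 and 265 against 236, 268 and 253. None of these 3 passed the test, and in each the genotypes overlapped.

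Density also differed along each window. Shared regions numbered 16.3 per 100 kb over KRT80 and KRT7 and 14.8 over S100A10 and S100A11, against 3.00 over the late cornified envelope genes, 2.24 over the keratin-associated protein genes and 0.693 over KRT222 to KRT28. The longest stretch without a peak in any library was 47.6 kb in the epidermal complex, 26.8 kb in the type II cluster and 46.3 kb in the type I cluster, where it held KRTAP9-4.

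**Figure D2:**
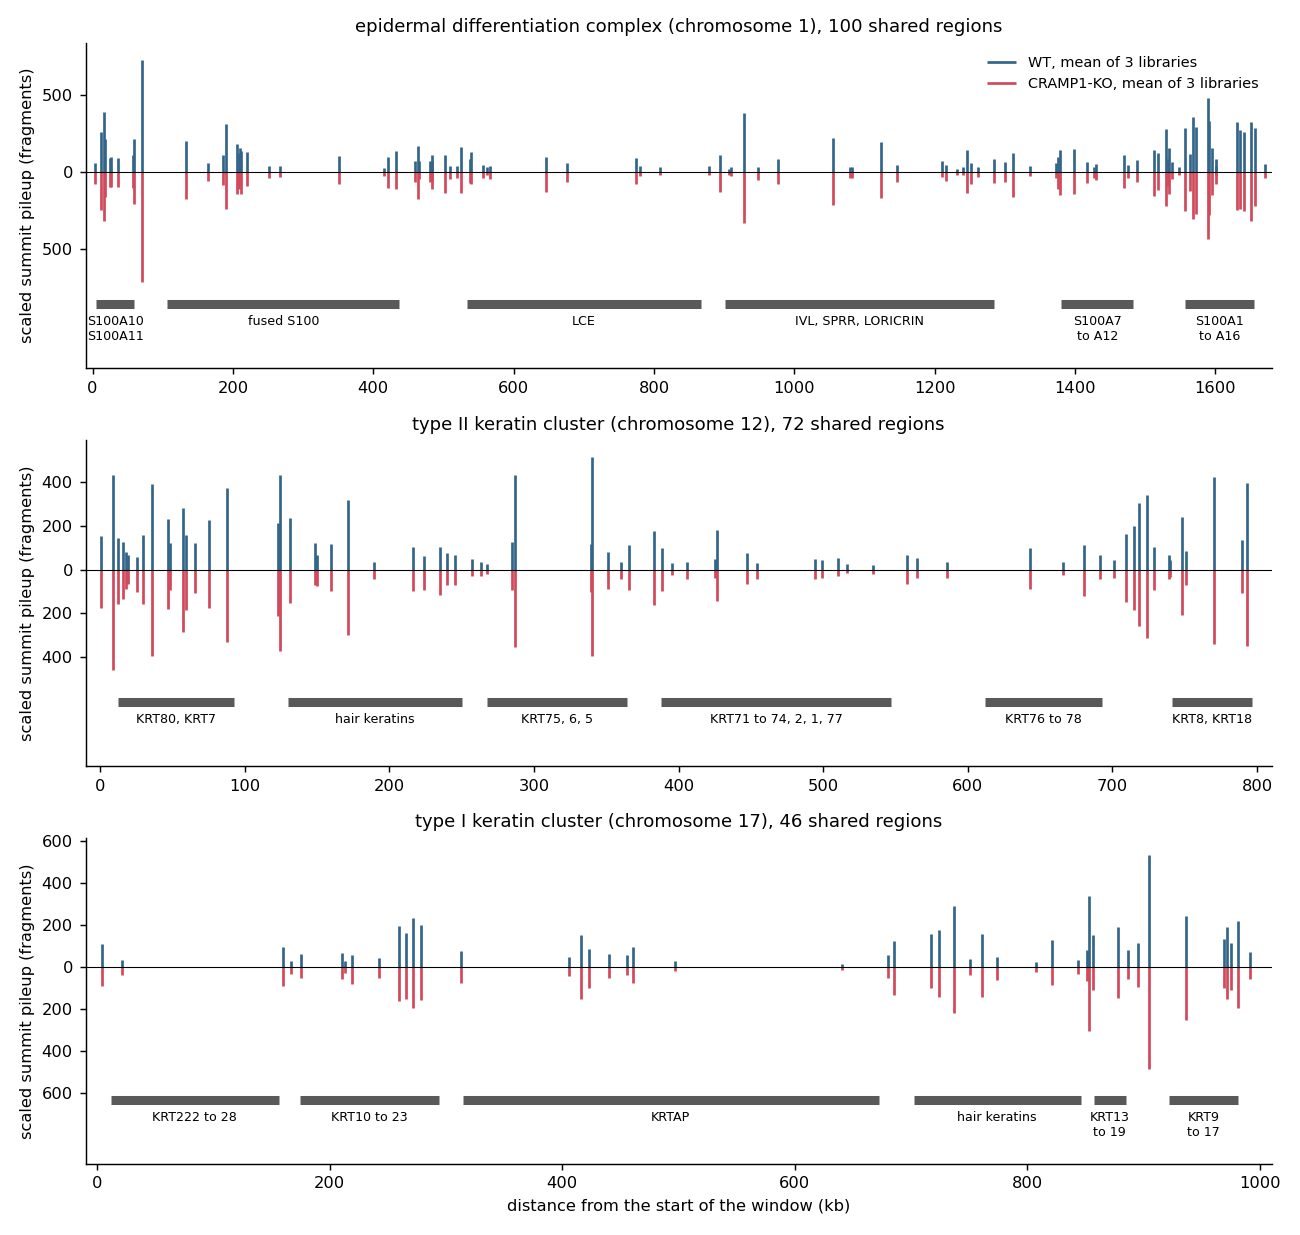
Scaled summit pileup of the shared regions (vertical axis, fragments) along the 3 windows (horizontal axis, kb from the window's start), with the mean of 3 WT libraries drawn upward in blue and of 3 CRAMP1-KO libraries downward in red, and gene groups as grey bars. Tall lines stand at the S100 ends of the epidermal complex and at KRT80, KRT7, KRT8 and KRT18. Others stand near IVL, KRT6A, KRT75 and KRT19. The late cornified envelope and keratin-associated genes have few lines.

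The first genotype question was whether the windows as a whole had more or fewer peaks in CRAMP1-KO. As a share of all peaks of the library, the epidermal complex held 10.0, 9.89 and 9.87 per 10000 in WT against 9.12, 9.26 and 9.56 in CRAMP1-KO, which is 9.92 ± 0.072 against 9.31 ± 0.222 (SD, n = 3 each). The genotypes did not overlap, with p = 0.1 in a 2-sided exact permutation test, the smallest that 3 against 3 libraries allow, and 0.3 after Benjamini-Hochberg adjustment over the 3 windows. Of 1-Mb bins across the genome, 12.6% were likewise lower without overlap. In the type II cluster the share was 7.20 ± 0.876 against 6.77 ± 0.146, and in the type I cluster 5.26 ± 0.317 against 4.85 ± 0.172 (SD, n = 3 each), and the genotypes overlapped in both. The epidermal genotypes overlapped once weak peaks were dropped: the difference shrank from −0.609 to −0.061 per 10000 with peaks of −log10 q of at least 5, and to −0.251 at 10 or more. They also overlapped with each list limited to the length of the shortest (−0.502), while the type II shares no longer did (−0.528).

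Covered bases gave a similar picture. Peaks in the type I cluster covered 523, 495 and 471 bases per 1000000 covered bases of the library in WT against 469, 456 and 457 in CRAMP1-KO. These did not overlap, by a margin of less than 2 bases between WT replicate 3 and CRAMP1-KO replicate 1 (exact permutation p = 0.1), as in 13.3% of 1-Mb bins. The difference of −35.7 bases became −22.4 without WT replicate 1. The genotypes overlapped with peaks of −log10 q of at least 5 (−24.2) or 10 (−27.4) and with lists of equal length (−14.6). The epidermal complex (1023 ± 20.8 against 993 ± 10.5) and the type II cluster (890 ± 72.0 against 855 ± 18.5, SD, n = 3 each) overlapped. With lists of equal length neither did (−35.0 and −52.2). In a limma fit over 1-Mb bins of the genome, 21.6% of 2828 bins were called at an adjusted p under 0.05, and 0 of the 7 bins that overlap the windows, with 0 at an unadjusted p under 0.05 and a lowest adjusted p of 0.27.

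Each window was then set against flanks of its own length on either side. The log2 ratio of window peaks to the peaks of both flanks, where equal density gives −1, was −1.25 ± 0.067 in WT against −1.32 ± 0.062 in CRAMP1-KO for the epidermal complex. For the type II cluster the ratio was −0.68 ± 0.14 and −0.73 ± 0.055, above equal density, and for the type I cluster −1.69 ± 0.17 and −1.81 ± 0.10 (SD, n = 3 each), the lowest of the 3. The genotypes overlapped in all 3 windows, with exact permutation p-values of 0.3, 0.6 and 0.4.

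In the 2 keratin clusters, all 3 CRAMP1-KO libraries had a larger median peak width than any WT library. In the type II cluster it was 502, 492 and 498.5 bp in WT against 575.5, 566 and 579.5 bp in CRAMP1-KO, and in the type I cluster 349, 350 and 329 bp against 425, 386 and 360 bp. Both were free of overlap (exact permutation p = 0.1), as were 39.1% of 1-Mb bins in the same direction. In the epidermal complex the widths were 344, 457 and 412 bp against 497, 457 and 476 bp, and overlapped. The medians over whole libraries were 351, 425 and 378 bp in WT against 463, 430 and 457 bp in CRAMP1-KO, so the width difference was not limited to the windows. With each list limited to its 132686 strongest peaks, or to peaks of −log10 q of at least 10, the type II and type I widths overlapped between genotypes, and the type I widths did so at 5 or more too.

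**Figure D3:**
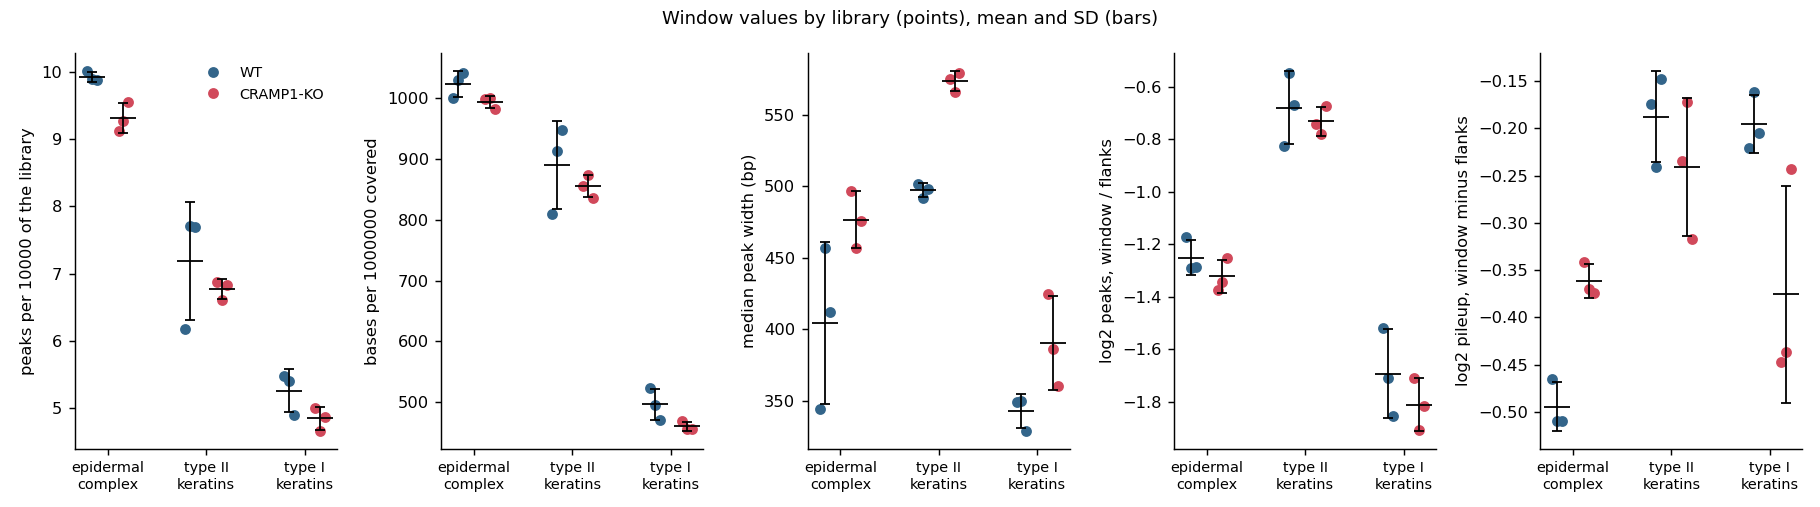
Window values per library for the 3 windows (horizontal axes): peaks per 10000, covered bases per 1000000, median peak width in bp, log2 ratio of peaks in the window to its flanks, and log2 pileup of the window minus its flanks (vertical axes). Points are libraries, WT in blue and CRAMP1-KO in red, with the mean and SD as bars, and the 3 WT peak shares of the epidermal complex (9.87 to 10.0) lie above the CRAMP1-KO shares (9.12 to 9.56).

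Region by region, the comparison could be made for the 218 members with a peak in all 6 libraries: 100 in the epidermal complex, 72 in the type II cluster and 46 in the type I cluster. The share of all merged regions with a peak in all 6 was 37.3%. The other 294 members had no pileup in at least 1 library and were not fitted, and 136 of them, 55, 44 and 37 in the 3 windows, were called in 1 library only. In limma over all 92505 shared regions, 7.34% were higher and 9.78% lower in CRAMP1-KO, together 17.1%. Of the 218 members, 10 were higher and 32 lower, together 19.3%. By window, 7 were higher and 11 lower in the epidermal complex (18.0%), 3 and 13 in the type II cluster (22.2%), and 0 and 8 in the type I cluster (17.4%). These shares were near the background in every window.

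The members' median log2 difference was −0.14, beside −0.07 over all shared regions. It was −0.05 in the epidermal complex, −0.17 in the type II cluster and −0.28 in the type I cluster, where 38 of 46 regions were below 0. The flanks had medians of −0.14, −0.15 and −0.14, with 10.4%, 11.4% and 14.2% called. Calls at gene starts were 5 of 32 shared start regions (1 higher, 4 lower), those within genes 9 of 36 and those between genes 28 of 150.

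Scaling mattered for the split of calls. With libraries scaled by a relative depth index, the lowest solved background over the lowest peak width, the median of all shared regions moved from −0.07 to 0.09 and the share of higher calls over the genome from 42.9% to 85.0%. Only 3 higher and 3 lower members were then called, 2.75% of members beside 5.37% of all shared regions, and their median was 0.02, again below that of all regions. Taken over the solved local background, 3 were higher and 5 lower, 3.67% of members beside 4.40% of all, and the medians were −0.05 and −0.06, so the members no longer stood lower. In place of 42 calls there were 25 when WT replicate 2 was left out, 27 without CRAMP1-KO replicate 1, and 25 when CRAMP1-KO replicate 3 was dropped. These were 11.5%, 12.4% and 11.5% of members, beside 9.84%, 11.3% and 11.4% of all shared regions, so calls fell over the genome as well.

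**Figure D4:**
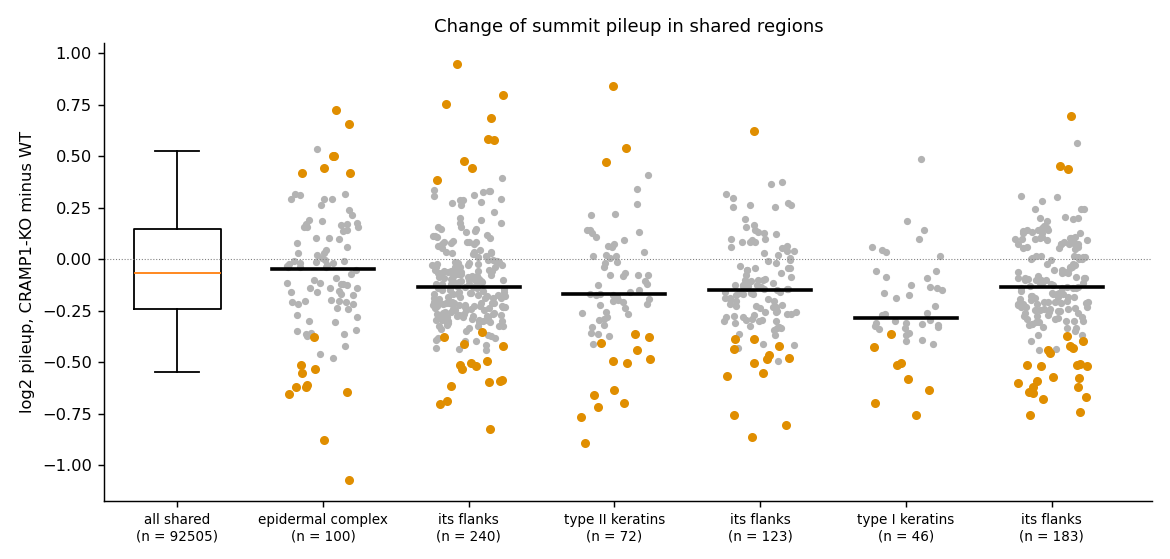
Log2 difference in summit pileup between CRAMP1-KO and WT (vertical axis) for all shared regions (box with median and quartiles, whiskers from the 5th to the 95th percentile), for each window and for its flanks. Points are regions, orange where limma called them, and black lines are medians, which run from −0.05 in the epidermal complex to −0.28 in the type I cluster.

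Within each library, the median log2 pileup of a window was also set against that of its flanks. In the epidermal complex this difference was −0.46, −0.51 and −0.51 in WT against −0.34, −0.37 and −0.37 in CRAMP1-KO. In the type I cluster it was −0.22, −0.16 and −0.20 in WT against −0.45, −0.44 and −0.24 in CRAMP1-KO. Both were free of overlap and of opposite sign, with exact permutation p-values of 0.1 (0.15 adjusted over the 3 windows). Across the genome the centred median pileup of 1-Mb bins, taken without subtracting flanks, was higher without overlap in 26.4% of bins and lower in 19.4%. That is a different measure, so it gives no background rate for the differences from flanks. On that measure the epidermal window overlapped between genotypes, and both keratin windows were lower in CRAMP1-KO without overlap.

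The window and its flanks contributed differently to these values. In the epidermal complex the window's own centred median was 0.31 in WT against 0.30 in CRAMP1-KO, while that of its flanks was 0.80 and 0.66. In the type I cluster the window stood at 0.39 in WT and 0.19 in CRAMP1-KO, and its flanks at 0.59 and 0.57. The solved local background of the type I window relative to its flanks was also lower in CRAMP1-KO, −1.10 beside −0.90 (exact permutation p = 0.1), and pileup over local background differed from the flanks by only −0.02 between genotypes (exact permutation p = 0.8). In the epidermal complex the local background relative to the flanks overlapped, −0.55 in CRAMP1-KO beside −0.54 in WT. Pileup over local background there, relative to the flanks, was 0.071 in CRAMP1-KO beside 0.0046 in WT, without overlap (exact permutation p = 0.1). The type II cluster stood at −0.19 ± 0.048 in WT against −0.24 ± 0.073 in CRAMP1-KO (SD, n = 3 each) and overlapped.

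Among single regions, the largest fall was at chr1:153160569-153161444, 14520 bp from LELP1 (a proline-rich gene related to the late cornified envelope family). Scaled pileups there were 60.9, 73.9 and 75.3 in WT against 27.8, 40.5 and 32.3 in CRAMP1-KO. Every CRAMP1-KO value was below every WT value, with a log2 difference of −1.07 (SE 0.15, limma adjusted p = 0.0019). Within 4 kb of it, chr1:153165313-153165957 went the other way, from 45.7, 45.0 and 48.8 to 63.0, 61.9 and 61.6 (log2 difference 0.42, SE 0.11, adjusted p = 0.022).

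Further regions of the epidermal complex were called in both directions. A site 12717 bp from LCE6A, chr1:152828039-152828514, fell from 35.8, 42.4 and 37.6 to 24.2, 21.4 and 17.7 (log2 difference −0.88, SE 0.14, limma adjusted p = 0.0029), and a site 2644 bp from CRCT1 fell by 0.65 on the log2 scale. A site 17515 bp from IVL, chr1:152898536-152899005, rose from 41.1, 29.7 and 27.9 to 60.5, 54.8 and 46.2 (log2 difference 0.72, SE 0.16, limma adjusted p = 0.014). Sites near SPRR2F (0.66), PRR9 (0.50, 11493 bp away), S100A10 (0.44) and LORICRIN (0.42, 28737 bp away) were also higher on the log2 scale. These sites are named by the nearest usable start, and a link to IVL or LORICRIN was not tested. The start of PGLYRP3 failed the spacing check and was left out, so LORICRIN may not be the nearest gene to its site. The start of LORICRIN itself stood at 96.7, 78.1 and 71.1 in WT against 77.5, 69.1 and 76.9 in CRAMP1-KO and was not called.

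At gene starts of the epidermal complex, LCE3A was higher and PRR9 and S100A13/CHTOP lower. The LCE3A start region, chr1:152595166-152596334, rose from 89.9, 90.8 and 103 to 131, 146 and 124 (log2 difference 0.50, SE 0.12, limma adjusted p = 0.018), and the LCE3A promoter printed above held a TEAD match 158 bases before the start and neither of the TATA and GC box letters. The PRR9 start, named after its values were seen, fell from 28.9, 33.1 and 23.7 to 18.2, 17.9 and 19.2 (log2 difference −0.62, SE 0.14, limma adjusted p = 0.012). PRR9 encodes a proline-rich protein of the complex, and its promoter held both an AP-1 and a TATA match. The shared start of S100A13 and CHTOP, an mRNA export factor, fell from 295, 295 and 272 to 199, 238 and 229 (log2 difference −0.38, SE 0.12, limma adjusted p = 0.048), a call close to the threshold.

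In the type II cluster the largest rise was inside KRT80, at chr12:52575424-52576009, 9775 bp from its start. It rose from 51.8, 61.1 and 57.1 to 92.0, 119 and 94.6 (log2 difference 0.84, SE 0.13, limma adjusted p = 0.0029), whereas the KRT80 start did not. Sites inside KRT84, a hair keratin gene, and KRT73, a sheath keratin gene, were higher by 0.54 and 0.47 on the log2 scale. The KRT73 call was lost in every setting in which that region was fitted except without CRAMP1-KO replicate 2.

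Lower regions of the type II cluster were near hair, epidermal and simple keratins alike. A site 13364 bp from KRT1, chr12:53060330-53060827, fell from 50.3, 56.0 and 55.7 to 33.9, 28.6 and 25.4 (log2 difference −0.89, SE 0.13, limma adjusted p = 0.0022). One inside the hair keratin gene KRT86, chr12:52698340-52699233, fell from 102, 126 and 139 to 78.7, 76.2 and 60.8 (log2 difference −0.76, SE 0.15, limma adjusted p = 0.0073), where the near-identical KRT81 and KRT83 leave read placement uncertain. The start region of KRT78, chr12:53241242-53242178, fell from 58.6, 73.0 and 72.5 to 36.3, 42.9 and 44.6 (log2 difference −0.72, SE 0.13, limma adjusted p = 0.0060). Sites 6797 bp from KRT82 and 9425 bp from KRT8 fell by 0.70 and 0.66 on the log2 scale. In each of these 5 regions the genotypes did not overlap, which is likely for regions chosen as the largest calls in the same libraries.

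In the type I cluster all 8 called regions were lower. The site 8699 bp from KRT33B, chr17:39516663-39517353, fell from 168, 161 and 153 to 99.3, 95.3 and 102 (log2 difference −0.70, SE 0.11, limma adjusted p = 0.0027). A region inside the neighbouring hair keratin gene KRT34, chr17:39536009-39537353, fell from 285, 293 and 301 to 217, 229 and 208 (log2 difference −0.43, SE 0.11, limma adjusted p = 0.022). The weak site near KRTAP4-12 fell from 25.1, 23.8 and 36.2 to 19.4, 16.7 and 13.8 (log2 difference −0.76, SE 0.18, limma adjusted p = 0.016). The region 885 bp from KRT19, a simple epithelial keratin, fell from 78.4, 89.1 and 76.7 to 53.3, 69.1 and 50.0 (log2 difference −0.51, SE 0.14, limma adjusted p = 0.031). The merged KRT19 region was present in all 6 libraries, and only the peak of CRAMP1-KO replicate 3 reached within 1 kb of the start.

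Of the 20 regions with the largest called changes, 10 in each direction, none changed sign in any setting tried. Only 6 kept their call with the depth index: the lower sites near LELP1, KRT1 and LCE6A and the higher ones in KRT80 and near IVL and SPRR2F. Over local background 7 kept it, and the LCE3A, KRT78 and KRT33B differences shrank to 0.18, −0.30 and −0.25 on the log2 scale. For these 3 the solved local background therefore moved with the pileup, and its part in the result was not tested.

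**Figure D5:**
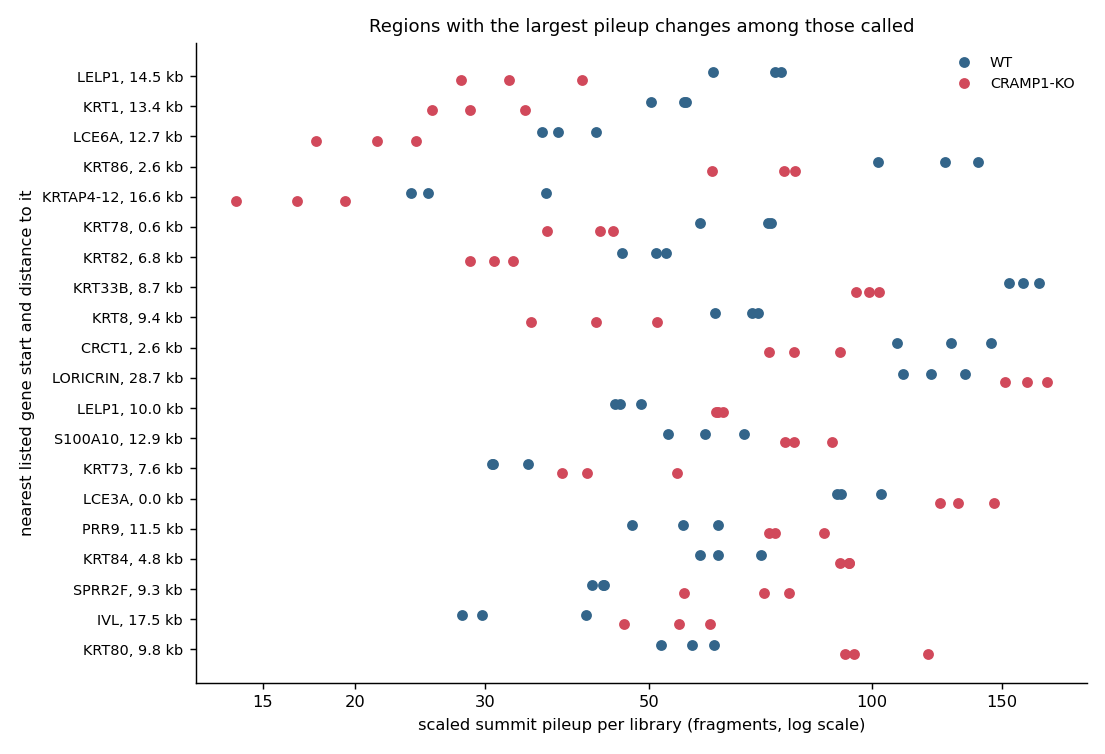
Scaled summit pileup per library (horizontal axis, fragments, log scale) of the 20 called regions with the largest changes, each named by its nearest listed gene start and the distance to it (vertical axis). Each point is 1 library, WT in blue and CRAMP1-KO in red, from the largest fall at the top (LELP1, 60.9 to 75.3 in WT and 27.8 to 40.5 in CRAMP1-KO) to the largest rise at the bottom (KRT80).

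Covered width within shared regions showed no called member. In limma, 0 of 218 were called at an adjusted p under 0.05, beside 0.108% of all shared regions, with a lowest adjusted p of 0.077. At an unadjusted p under 0.05, 10 members were wider and 18 narrower in CRAMP1-KO, and 11.9% of all shared regions passed. The direction depended on the scaling. Without centring each library on its median, 20 members were wider and 9 narrower at that threshold, beside 13.7% of all shared regions. The members' median log2 difference was then 0.06 in place of −0.07, and that of all shared regions 0.09 in place of −0.04. No other tool was run. Shared members were split into more than 1 peak in 4.13%, 2.29% and 4.13% of cases in WT and in 0%, 0.917% and 2.29% in CRAMP1-KO, beside 5.53%, 3.35% and 5.03% and 2.15%, 2.96% and 2.11% over all shared regions.

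Sites called in all 3 libraries of 1 genotype and in none of the other were few. In the windows 4 of 512 members were found in CRAMP1-KO alone (0, 1 and 3 in the 3 windows). That was 0.781% of members, beside 0.767% of all merged regions. In WT alone 12 were found (4, 3 and 5), 2.34% beside 1.14%. The type I cluster had the highest shares, 2.31% in CRAMP1-KO alone and 3.85% in WT alone. These are counts with no test. The WT count was 28 without WT replicate 3 and 19 when CRAMP1-KO replicate 3 was left out, and 6 with peaks of −log10 q of at least 5. As a share of window regions, WT-only sites went from 2.34% to 5.58%, 3.85% and 1.67% in these settings. Over all merged regions the share went from 1.14% to 3.59%, 2.49% and 1.21%. At −log10 q of at least 5 it therefore did not fall with the share in the windows. The CRAMP1-KO count was 7 without WT replicate 1, and 8 or 7 when CRAMP1-KO replicate 1 or 2 was left out. The share over all merged regions was then 2.14%, 1.64% and 1.59%, beside 0.767% in the full set.

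The strongest CRAMP1-KO-only site was chr12:52645835-52646266, 18881 bp from the KRT7 start, with unscaled pileups of 37, 42 and 53 and a median −log10 q of 19.9. The other 3, near KRT24, KRTAP9-2 and KRTAP17-1, had median values of 5.76, 5.45 and 6.74. Of the WT-only sites, the strongest lay 42 bp from the start of the hair keratin gene KRT34, chr17:39538708-39538941, with pileups of 74, 81 and 43 and a median −log10 q of 18.2. It lay beside the KRT34 body region that was also lower in CRAMP1-KO, and the near-identical KRT33A and KRT33B make read placement there uncertain. Another WT-only site stood at the start listed for PGLYRP4, a peptidoglycan-binding antibacterial protein, chr1:153321026-153321333, with pileups of 55, 58 and 28. The listed start did not match the RefSeq promoter of PGLYRP4 within 150 bp, so the site may not lie at that promoter. A second region, 681 bp from that start, had a peak in all 6 libraries, with scaled pileups of 63.2, 45.0 and 61.3 in WT against 49.6, 34.5 and 42.3 in CRAMP1-KO, which overlapped. A WT-only site 16519 bp from CRNN had a median −log10 q of 15.1, and the site near KRT39 one of 8.97. The remaining WT-only sites that were named, near KRT14, KRT85, KRTAP4-11, KRT31, S100A7 and KRT4, had values between 3.42 and 4.86.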

How the data were processed

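The tools named in the submitters' processing notes are bcl2fastq 2.20.0, cutadapt 3.4, BWA 0.7.17-r1188 and MACS3, with the build hg19. For MACS3, version, settings and duplicate handling: not given in the sources used here. One peak list per library, without pooling, was deposited by the authors. The deposited score is 10 times −log10 q, truncated. Fold enrichment, as deposited, is a ratio of summit pileup to local background. The −log10 p and −log10 q were deposited with each peak and test it against the same background. Per the labels' protocols, 50000 cells were tagmented for 30 minutes and amplified for 7 PCR cycles.

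Summit pileup and local background were solved from fold enrichment and −log10 p (Poisson). Solved pileups were whole numbers within 0.01 for 100% of peaks in each library. Peaks overlapping by 1 bp were merged across libraries. Log2 pileup and log2 covered bases of regions shared by all 6 libraries were centred per library on the median and fitted with limma 3.58.1 (R 4.3.3), with Benjamini-Hochberg adjustment over all shared regions and a threshold of 0.05. Bins of 1 Mb averaging 5 or more peaks were fitted on log2 share with a pseudocount of 0.5. Window values were tested with the 2-sided exact permutation test over 20 assignments, which cannot go below 0.1. Alternatives were stricter peak thresholds, lists of equal length, other scalings, pileup over local background, shorter flanks, a replicate block and leaving out each library. The solver and fits were tested on simulated data.

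Gene starts were written by hand for hg19. Inside the windows, the spacing of the genes was checked against RefSeq GRCh38.p14. A match of either gene end was enough, so the start itself was not always checked. For genes outside the windows only the chromosome was checked. Of 134 listed genes, 133 passed a tolerance of 150 bp, which was set after the spacings were seen. Named regions were the called ones, at most 10 per direction, the genotype-specific ones, at most 10 per direction, and the 5 strongest per window. Genes named at starts came from a fixed list. Members and lists were chosen with earlier results of these data known. The 5 motif and promoter examples were picked for the text. Libraries were not paired by replicate number in the main tests. Deviations of same-numbered libraries correlated at 0.056, 0.062 and −0.090, and those of differently numbered ones between −0.16 and 0.098. Whether same-numbered libraries were handled together is not in the labels and was not tested.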

Additional observations from a re-analysis of the deposited data

How the results depend on the processing

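Peak share, covered share and median width of the windows kept their direction in every setting tried, as did the pileup shift against the flanks. The separation of the genotypes in the epidermal peak share and the type I covered share did not last. Both overlapped with peaks of −log10 q of at least 5 or 10 and with lists of equal length. With those lists the type II peak share and the epidermal and type II covered shares did not overlap. The type II median width stayed free of overlap at 5 or more only. The epidermal pileup shift stayed so with shorter flanks and over local background, and the type I shift with shorter flanks only. The log2 ratio of window to flank peaks, CRAMP1-KO minus WT, reversed to 0.015 in the epidermal complex with peaks of −log10 q of at least 5 and to 0.015 in the type II cluster without WT replicate 2, where leaving out each library in turn gave −0.12 to 0.015. Calls of shared-region pileup in the windows, 42 in all, were 8 over local background, 6 with the depth index and 25 to 33 with each library left out in turn. As a share they went from 19.3% to 3.67%, 2.75% and 11.5% to 15.1%, and calls over all shared regions from 17.1% to 4.40%, 5.37% and 9.84% to 12.6%, so the fall was not limited to the windows. Leaving out libraries gave 4 to 8 CRAMP1-KO-only sites and 13 to 28 WT-only sites. Over all merged regions these shares then ranged from 0.894% to 2.14% and from 1.46% to 3.59%. The WT-only count was 6 with peaks of −log10 q of at least 5 and 6 with lists of equal length. Those were 1.67% and 1.47% of window regions, beside 1.21% and 0.954% of all merged regions. With the replicate number as a block, 35 members were called for pileup (7 higher, 28 lower), 0 for width and 0 bins. No p in the window tests can fall under 0.1, so their stability says nothing on significance. Without counts of reads, depth limits weak sites most: 294 of 512 members lacked a peak in at least 1 library.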
